A study of Mus musculus with 48 samples.

Results

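The samples were kidney slices kept alive in culture outside the body for 24 h, either with cyclosporin A or as controls, and came from male C57BL/6J or DBA/2J mice, both of them inbred. The members were taken by their labelled treatment and time. They are 12 of the 48 RNA-seq libraries of the study, 3 C57BL/6J and 3 DBA/2J libraries a side, and the strain was kept in every model. The study used such slices to look at renal effects of nephrotoxins and of oxygen changes, and the other libraries hold tunicamycin, normoxia and normoxia-hyperoxia slices and the 6 h time point. The dose, the vehicle given to the controls, the ages of the mice, the slice thickness and the number of animals are not given in the sources used here. Replicates carry the numbers 1 to 3, and whether each was a different mouse is not given in the sources used here, so p-values measure the spread between these samples, which may be technical. A slice in a dish has no blood flow, no filtration and no supply of cells from the blood, so whatever cyclosporin does through those routes in an animal is outside the measurement.

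Cyclosporin A is a cyclic fungal peptide used to prevent rejection of transplants. It enters cells and binds cyclophilins, enzymes that isomerize proline bonds during protein folding. The complex with cyclophilin A blocks calcineurin, a calcium-dependent phosphatase, so that NFAT transcription factors stay phosphorylated in the cytoplasm and their target genes, such as interleukin 2 in T cells, are not switched on. Its best known side effect is kidney damage, with narrowing of the afferent arteriole, injury of proximal tubule cells, interstitial fibrosis and wasting of magnesium. Effects described in kidney cells include endoplasmic reticulum stress, oxidative stress and changes of distal salt transport.

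Total counts per library ran from 12384733 to 23584681, both in C57BL/6J slices. The share of counts from the mitochondrial genome ran from 5.58% to 7.87% in the 6 C57BL/6J libraries and from 3.11% to 4.12% in the 6 DBA/2J libraries, and treated and control libraries overlapped in both strains. Strain accounted for the first principal component of log2 CPM (counts scaled to a common library size), with 63.7% of the variance. The next components held 7.02%, 5.45% and 4.19%, and none of them separated cyclosporin from control libraries. The labelled tissue was borne out by segment markers: the 8 podocyte markers summed to between 520 and 1956 CPM in every library, and the 8 markers of the loop and distal tubule to between 2184 and 7555 CPM.

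The first question was whether any transcript differed between cyclosporin and control slices in the same direction in both strains. None passed in edgeR in the 12 libraries after the count filter. Of 16887 genes tested with edgeR's quasi-likelihood test, 0 (0%) had a Benjamini-Hochberg adjusted p under 0.05, and the smallest adjusted p was 0.228. Without adjustment, 1107 genes (6.56%) had p under 0.05, 532 of them higher (3.15%) and 575 lower (3.4%). The strain-specific contrasts of the same fit gave 0 adjusted calls in C57BL/6J (538 unadjusted, 3.19%) and 0 in DBA/2J (721 unadjusted, 4.27%). DESeq2 called 19 of the 6660 genes to which it gave an adjusted p (0.285%), 18 lower and 1 higher. In bulk slices, fewer cells of a type and less RNA per cell cannot be told apart, and this holds for every value that follows.

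The same fit bounds what cyclosporin could have done to each transcript. The 95% confidence interval of the log2 change lay inside a 2-fold change in either direction for 14930 genes (88.4%), inside 1.5-fold for 11904 (70.5%) and inside 1.25-fold for 7862 (46.6%). Among the 13360 genes with a mean of at least 1 log2 CPM, 98% were inside 2-fold, 87.5% inside 1.5-fold and 58.8% inside 1.25-fold. A pair of one-sided tests against a 2-fold change in each direction, adjusted over all genes, put 15458 genes (91.5%) within 2-fold. Expression level set the precision: the median half-width of the interval was 1.09-fold for the 3762 genes over 6 log2 CPM and 1.77-fold for the 2141 genes under 0. Only 35.8% of that weakest class were inside 2-fold.

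**Figure D1:**
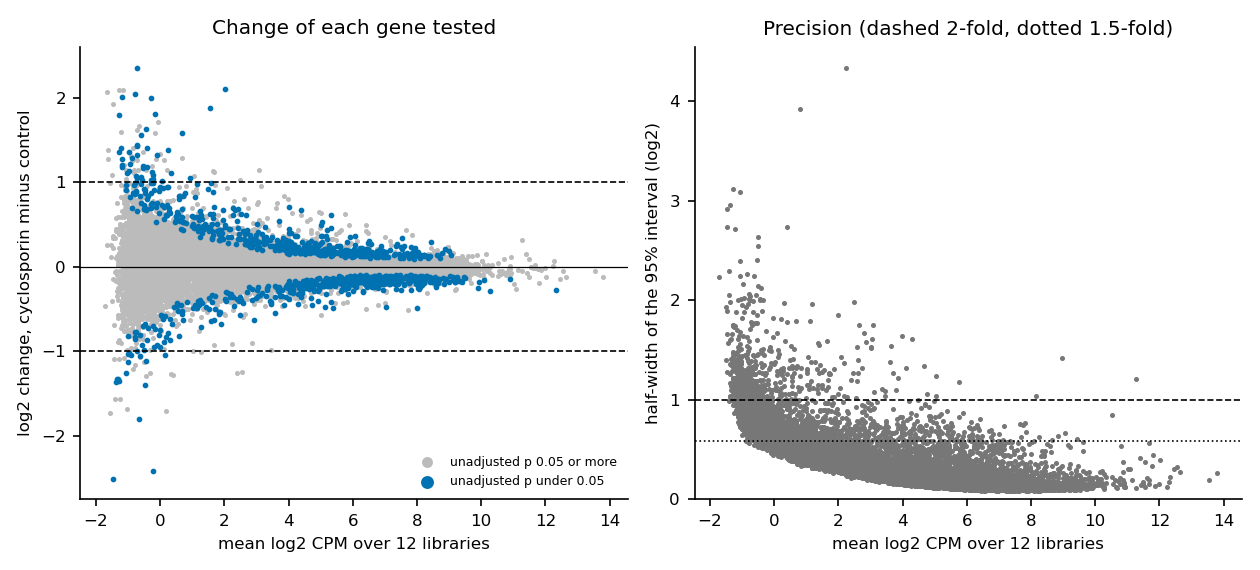
Each point is 1 of the 16887 genes tested, placed by its mean log2 CPM over the 12 libraries; the left panel gives the log2 change of cyclosporin against control averaged over the strains, with dashed lines at 2-fold, and the right panel gives the half-width of its 95% interval on the log2 scale, dashed at 2-fold and dotted at 1.5-fold, without the 73 genes that have no finite interval. Genes with an unadjusted p under 0.05 are blue and lie mostly within 2-fold of control, and the interval narrows from left to right.

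Both strains were also compared library by library. For 207 genes, the treated libraries of each strain were all above or all below that strain's controls, with 1 direction shared by C57BL/6J and DBA/2J (1.23% of genes). Of these, 83 were higher (0.492%) and 124 lower (0.734%). Another 25 genes (0.148%) were separated in opposite directions in the strains. Among genes of at least 1 log2 CPM, 62.1% had the same sign in C57BL/6J and DBA/2J, with Pearson's r of 0.217 across these 13360 genes, which are not independent replicates and share the scaling of their libraries. With offsets for GC content and transcript length in the model, described below, the share was 56.8% and r was 0.153. The genes described first are the 12 lower and the 12 higher ones with the smallest p among those separated in both strains. Since the choice used these values, they are a description.

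The lowest p of the table belonged to Suco, which encodes a membrane protein of the endoplasmic reticulum. It stood at 214, 189 and 205 CPM in the C57BL/6J controls and at 169, 172 and 167 CPM with cyclosporin. In DBA/2J it stood at 201, 197 and 192 CPM in the controls and at 155, 160 and 166 CPM with cyclosporin. The groups did not overlap in either strain, and the means were 203 ± 12.2 against 169 ± 2.79 and 196 ± 4.2 against 160 ± 5.42 CPM (SD, n = 3). The log2 change over both strains was -0.28 (95% interval -0.37 to -0.18), or -17.5%, with an adjusted p of 0.228 in edgeR and 6.94e-06 in DESeq2.

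Dclk3, a kinase of the doublecortin-like family, stood at 42.6, 42.3 and 44.3 CPM in C57BL/6J controls and 32.9, 37.4 and 35.1 CPM with cyclosporin. Its DBA/2J values were 38, 35.3 and 38 CPM in controls and 30.9, 28.4 and 28.6 CPM with cyclosporin. All 6 treated libraries were below their strain's controls, with a log2 change of -0.32 (interval -0.44 to -0.20). Hspa4l, a chaperone of the HSP110 family that serves Hsp70 as nucleotide exchange factor, ran from 84.4 to 94.9 CPM in C57BL/6J controls against 72 to 74.2 CPM with cyclosporin, and from 82.6 to 94.7 against 69.7 to 72.1 CPM in DBA/2J. Rock2, a kinase that drives actomyosin contraction, ran from 313 to 319 CPM in C57BL/6J controls against 278 to 293 with cyclosporin, and from 280 to 301 against 231 to 253 CPM in DBA/2J. Both therefore had treated libraries below all controls, at log2 changes of -0.29 and -0.21.

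The other 8 lower genes had log2 changes between -0.26 and -0.20. They were Fmn1 (a formin that nucleates actin), Zfp654 (a zinc finger protein), Copb1 (a subunit of the COPI coat of Golgi vesicles), Mpp5 (a scaffold of the apical polarity complex of epithelia), Usp34 (a deubiquitinase), Tbc1d15 (a Rab7 GTPase-activating protein), Acsl4 (which activates long-chain fatty acids such as arachidonate) and Dnajc21 (a co-chaperone in maturation of the large ribosomal subunit). Acsl4, for example, stood at 181 to 201 CPM in C57BL/6J controls against 157 to 166 CPM with cyclosporin, and at 151 to 172 against 125 to 150 CPM in DBA/2J. All 12 lower genes were among the DESeq2 calls, which also held, among others on the lower side, Usp47, Ranbp2, Enpep, Usp9x and Cltc. Adjusted p-values of the 12 in edgeR lay between 0.228 and 0.463; with all 48 libraries in the fit, that of Dclk3 was 0.0234.

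Myc, the transcription factor of growth and proliferation that is induced in injured tubules, was the 1 DESeq2 call on the higher side. It stood at 230, 219 and 209 CPM in C57BL/6J controls and at 243, 255 and 265 CPM with cyclosporin. In DBA/2J it stood at 189, 198 and 195 CPM in controls and at 234, 231 and 232 CPM with cyclosporin. The groups did not overlap, and the log2 change was 0.23 (interval 0.14 to 0.33), or 17.7%, with an adjusted p of 0.228 in edgeR and 0.000256 in DESeq2. At 6 h, against other controls, its log2 change was 0.32 with a wide interval of -0.14 to 0.78.

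Ccnd1, the cyclin that carries cells from G1 into S phase, stood at 268, 286 and 272 CPM in C57BL/6J controls and 334, 299 and 376 CPM with cyclosporin. Its DBA/2J values were 376, 300 and 372 CPM in controls and 389, 467 and 436 CPM with cyclosporin. The log2 change was 0.29 (interval 0.14 to 0.45), and every treated library lay above all controls of its strain. Further higher genes were Clcf1 (a cytokine of the interleukin 6 family), Adam8 (a membrane metalloprotease), Fjx1 (a secreted kinase homologous to fly four-jointed), Bok (a pore-forming BCL2 relative), Zfp276 (a zinc finger protein) and Usp43 (a deubiquitinase), at log2 changes between 0.24 and 0.30. Adam8 stood at 120 to 128 CPM in C57BL/6J controls against 131 to 163 CPM with cyclosporin, and at 169 to 185 against 199 to 243 CPM in DBA/2J.

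The last 4 of the higher genes belong to the ribosome: Rpl41, Rps10, Rps28 and Rpl9-ps6. Rpl9-ps6 had the largest change of the 24, with 1.15 to 1.87 CPM in C57BL/6J controls against 3.31 to 5.18 CPM with cyclosporin, and 1.9 to 2.69 against 3.2 to 3.91 CPM in DBA/2J, a log2 change of 0.99 (interval 0.62 to 1.37). It is a near-identical copy of Rpl9, so its few reads cannot be told apart with certainty from reads of the parent gene. Rpl41 ran from 391 to 398 CPM in C57BL/6J controls against 427 to 475 CPM with cyclosporin, and from 440 to 481 against 502 to 602 CPM in DBA/2J, a log2 change of 0.21. With these genes seen, a list of all ribosomal protein genes was added. Of 81 tested, 74 were higher and 7 lower, where 46.4% of all genes tested had a log2 change below 0. At an unadjusted p under 0.05, 21 were higher (background 3.15%) and none lower, and the median log2 change was 0.07. All but 1 of the 81 were bounded within 1.5-fold.

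Several of these 24 genes stood at similar values in tunicamycin slices at 24 h, which were measured against the same control libraries, so that a control library that is high or low enters both comparisons. Dclk3 had a log2 change of -0.27 with tunicamycin (adjusted p = 0.0447 in edgeR) beside -0.32 with cyclosporin, and Fmn1 -0.22 (adjusted p = 0.035) beside -0.24. Myc had 0.24 (interval 0.11 to 0.37) beside 0.23, Hspa4l -0.21 beside -0.29 and Rock2 -0.16 beside -0.21. Rpl9-ps6 and Rps28 rose with tunicamycin, by 1.05 (adjusted p = 0.00933) and 0.23 (adjusted p = 0.0272), beside 0.99 and 0.17 with cyclosporin. Mpp5 and Usp34 had -0.17 and -0.18 with tunicamycin.

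The direct contrast of cyclosporin with tunicamycin slices uses no control library, although the cyclosporin libraries in it are those that chose the genes. It gave Myc a difference of -0.006 (interval -0.14 to 0.13), Dclk3 -0.05 (interval -0.19 to 0.10), Fmn1 -0.02 (interval -0.14 to 0.10) and Rpl9-ps6 -0.05 (interval -0.39 to 0.28). Other genes stood apart from tunicamycin: Adam8 differed by 0.57 (adjusted p = 0.0119 in edgeR), Clcf1 by 0.41 (adjusted p = 0.00852), Usp43 by 0.39 (adjusted p = 0.0418), Bok by 0.36 (adjusted p = 0.0452) and Copb1 by -0.24 (adjusted p = 0.0183). Against control, tunicamycin itself gave Adam8 -0.30 (interval -0.47 to -0.14) and Clcf1 -0.15 (interval -0.26 to -0.03). It gave Usp43 -0.15, Bok -0.07 and Copb1 0.04, with intervals that included 0. A direct difference therefore also holds the change of the tunicamycin slices. Suco had -0.08 with tunicamycin (interval -0.19 to 0.03) and a direct difference of -0.20 (interval -0.30 to -0.09, adjusted p = 0.0744 in edgeR).

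The lower and the higher leading genes differed in base composition. The 12 lower genes had a median transcript GC content of 41% and a median transcript length of 5866 bases, and the 12 higher genes 55.3% and 2736 bases, where the median over all protein-coding genes tested was 50% and 3357 bases. Of the 19 DESeq2 calls, 17 were under that median GC and 15 over that median length. Suco and Fjx1 show the contrast: they had the lowest coding GC among the lower genes and the highest among the higher ones. Each is given as a 120-base window of its coding sequence, read 5′ to 3′ on the coding strand from GENCODE M21 transcripts on GRCm38, with G and C in capitals. Among windows set end to end from the first coding base, it is the one with GC nearest to that of the whole coding sequence.
Suco (chr1:161816114-161876682, minus strand, coding bases 361 to 480 of 3765): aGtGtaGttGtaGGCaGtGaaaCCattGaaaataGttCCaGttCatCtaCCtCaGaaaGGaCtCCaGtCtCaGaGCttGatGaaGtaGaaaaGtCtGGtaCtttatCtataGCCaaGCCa
Fjx1 (chr2:102449366-102452499, minus strand, coding bases 1081 to 1200 of 1353): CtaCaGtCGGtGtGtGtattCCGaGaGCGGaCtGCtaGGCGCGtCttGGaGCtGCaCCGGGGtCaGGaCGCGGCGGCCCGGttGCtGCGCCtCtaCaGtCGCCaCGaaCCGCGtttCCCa
The coding GC was 41% for Suco and 68% for Fjx1.

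The same trend ran through the whole table. When the protein-coding genes were split into 5 classes of equal size by transcript GC, the median log2 change was -0.06, -0.03, 0.01, 0.04 and 0.07 from the lowest to the highest class, and the share of genes lower at an unadjusted p under 0.05 went from 10.4% to 0.447%. In C57BL/6J the median ran from -0.07 in the lowest to 0.09 in the highest class, and in DBA/2J from -0.05 to 0.06, while at 6 h it ran from 0.01 to -0.005. Across 14534 genes Pearson's r of the log2 change with GC was 0.259, and with log2 length -0.114. The difference between the highest and the lowest GC class was -0.228, -0.128 and -0.209 log2 in the C57BL/6J controls and -0.006, -0.139 and -0.018 with cyclosporin. In DBA/2J it was -0.191, -0.048 and -0.009 in the controls and -0.072, 0.116 and 0.081 with cyclosporin, so 1 treated library lay among the controls in each strain.

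When smooth trends of each library on GC and length were put into the model as offsets, an alternative chosen after seeing the data, 0 genes passed and 777 (4.6%) had an unadjusted p under 0.05. The log2 changes were then smaller in size for 12 of the 12 higher and 11 of the 12 lower leading genes. Dclk3 was the exception, at -0.38, and it had the highest GC of the lower genes, 55.5%. Suco moved to -0.20 and Myc to 0.19. The size fell by over 1.5 times for Rps10 (to 0.06), Rpl41 (to 0.12), Hspa4l (to -0.18), Rock2 (to -0.13), Zfp654 (to -0.16), Mpp5 (to -0.12) and Usp34 (to -0.11). In the ribosomal protein list, 25 of 81 genes were then lower in place of 7, and the median log2 change was 0.04. The part of RNA quality or library preparation in this trend was not tested.

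**Figure D2:**
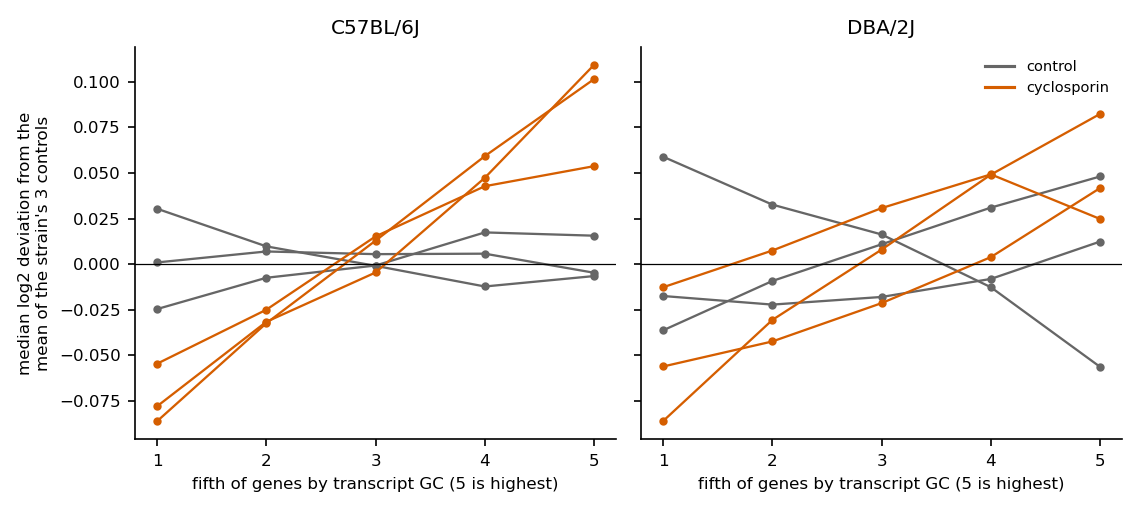
Each line is 1 library; the horizontal axis gives the class of protein-coding genes by transcript GC content, 5 classes of equal size, and the vertical axis the median deviation of their log2 CPM from the mean of the 3 control libraries of the strain, in which the controls themselves take part. Cyclosporin libraries slope upward, from between -0.09 and -0.01 in the lowest class to between 0.02 and 0.11 in the highest, and 3 of the 6 controls slope upward as well.

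The direct targets of the drug came next. Cyclophilin transcripts stayed close to control: of 17 genes of the family tested, 6 were higher and 11 lower, none passed in edgeR, and 2 were lower at an unadjusted p under 0.05 (background 3.4% lower), Ranbp2, which DESeq2 called (adjusted p = 0.0104), and the spliceosomal cyclophilin Cwc27. The median log2 change was -0.04, against 0.01 over all genes. Ppia, which encodes cyclophilin A, the main cytoplasmic receptor of cyclosporin, stood at 369, 362 and 433 CPM in C57BL/6J controls and at 394, 393 and 403 CPM with cyclosporin. In DBA/2J it stood at 420, 372 and 429 CPM in controls and at 484, 386 and 371 CPM with cyclosporin. The groups overlapped, and the change was bounded between -8.48% and 13.7%.

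Ppib, the cyclophilin of the endoplasmic reticulum, ran from 228 to 261 CPM in controls and from 227 to 259 CPM with cyclosporin over both strains, a log2 change of 0.01 (interval -0.09 to 0.11). Ppif, the mitochondrial cyclophilin D that sets the threshold of the permeability transition pore, ran from 122 to 194 CPM in controls and from 114 to 184 CPM with cyclosporin, a log2 change of -0.03 (interval -0.23 to 0.17). Ppid had -0.13 (interval -0.33 to 0.06) and Ppic 0.04 (interval -0.18 to 0.26). The mean score of the list, which is the mean log2 CPM over its members, differed by -0.05 (95% interval -0.11 to 0.004, from inverting the exact permutation of labels within strain), so a list-wide shift above 0.301% or below -7.13% lay outside the interval.

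The calcineurin and NFAT list held 19 tested genes, 10 higher and 9 lower, with a median log2 change of 0.002 and a score difference of 0.03 (interval -0.04 to 0.10). Of these, 3 had an unadjusted p under 0.05, where 6.56% of all genes did: Rcan1 and Nfat5 on the lower side and Nfatc2 on the higher. The catalytic subunits Ppp3ca and Ppp3cb had log2 changes of -0.06 (interval -0.21 to 0.09) and -0.12 (interval -0.25 to 0.02), and the regulatory subunit Ppp3r1 had -0.05 (interval -0.18 to 0.07). Ppp3r2, the testis form, was below the count filter, with 0 counts in 11 of the 12 libraries.

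Rcan1 encodes a feedback inhibitor of calcineurin and is the classic readout of the pathway, since one of its promoters is driven by NFAT. It stood at 222, 208 and 245 CPM in C57BL/6J controls and at 187, 175 and 193 CPM with cyclosporin. In DBA/2J it stood at 267, 264 and 265 CPM in controls and at 273, 211 and 182 CPM with cyclosporin. The C57BL/6J groups did not overlap, whereas DBA/2J replicate 1 with cyclosporin lay above all its controls. The log2 change was -0.27 (interval -0.45 to -0.09, unadjusted p = 0.0062, adjusted p = 0.656 in edgeR), and -0.32 with the GC and length offsets. Nfat5, the NFAT relative that responds to tonicity and lacks the calcineurin docking region, had -0.13 (interval -0.23 to -0.02), which shrank to -0.04 with the offsets.

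RefSeq lists 2 start sites of Rcan1 on GRCm38.p6, and gene-level counts do not tell their transcripts apart. The NFAT core GGAAA and its reverse complement TTTCC were searched in the 250 bases before each start. The upstream promoter, chr16:92466170-92466419 on the minus strand, held none. The inner one held 3 (1 GGAAA and 2 TTTCC, with no overlap between them), and it is shown as the one of the 2 with matches, which are in capitals.
Rcan1 inner promoter (chr16:92400079-92400328, minus strand, 5′ to 3′): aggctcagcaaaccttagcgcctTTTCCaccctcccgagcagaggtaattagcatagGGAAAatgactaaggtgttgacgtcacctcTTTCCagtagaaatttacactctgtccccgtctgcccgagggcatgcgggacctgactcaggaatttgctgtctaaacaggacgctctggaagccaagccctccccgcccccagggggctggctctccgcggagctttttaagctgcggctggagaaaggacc
Of 32851 mouse promoters of the same length, 55.6% held at least 1 match and 6.39% at least 3, so a match of 5 bases is a description and not a site.

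NFAT target genes of immune cells were below the count filter or, on average, weakly counted. Of the 20 listed, 10 were tested and 9 of these were higher, with a median log2 change of 0.25, but 0 of the 10 were bounded within 1.5-fold. The score of the list differed by 0.19 (interval -0.32 to 0.73), and by -0.01 without DBA/2J replicate 3 with cyclosporin. Only Egr2, an early response factor, had an unadjusted p under 0.05 (6.56% of all genes did), at 0.45 (interval 0.16 to 0.74). Il2, the archetypal target, had 0 counts in 9 of the 12 libraries and at most 2 in any, and Il4 and Il3 had 0 in all 12. Fasl, the death ligand of T cells, stood between 0.144 and 0.912 CPM, with a log2 change of 0.33. T cell markers summed to between 3.76 and 15.5 CPM per library, and Cd3d, Cd3g and Cd2 did not reach the count filter, so the cells in which cyclosporin is best known to act contributed few counts.

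Endoplasmic reticulum stress is the response the study could compare with tunicamycin, which blocks N-glycosylation and is a standard inducer of the unfolded protein response. With cyclosporin at 24 h, 19 of the 20 listed genes of that response lay below control and 1 above, where 46.4% of all genes tested had a log2 change below 0. None passed the adjusted test in edgeR, and 2 were lower at an unadjusted p under 0.05, Hspa5 and Pdia3, where 3.4% of all genes were. The median log2 change was -0.11, and all 20 genes were bounded within 1.5-fold. The score of the list differed by -0.12 with an interval of -0.31 to 0.09, so the common direction was within the spread between libraries. It was -0.06 without DBA/2J replicate 1 with cyclosporin, -0.07 without C57BL/6J replicate 3 with cyclosporin, -0.18 without DBA/2J replicate 3 with cyclosporin and -0.08 as the median over the members.

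Hspa5, the chaperone BiP that holds the sensors of the response inactive, stood at 6848, 5907 and 6422 CPM in C57BL/6J controls and at 5638, 5346 and 4598 CPM with cyclosporin. In DBA/2J it stood at 5420, 5094 and 4300 CPM in controls and at 3494, 3730 and 5165 CPM with cyclosporin. The C57BL/6J groups were apart, and DBA/2J replicate 3 with cyclosporin lay within its controls. The log2 change was -0.28 (interval -0.50 to -0.06, unadjusted p = 0.0163, adjusted p = 0.656 in edgeR). Hsp90b1, its partner Grp94, stood at 2682, 2183 and 2587 against 2087, 2082 and 1624 CPM in C57BL/6J and at 2412, 2374 and 1920 against 1526, 1761 and 2743 CPM in DBA/2J, where replicate 3 with cyclosporin was above all controls. Xbp1, whose mRNA is spliced by the sensor IRE1, was the member above control, at 0.03 (interval -0.06 to 0.13).

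At 6 h, where the controls are other libraries, the median over the same 20 genes was -0.01 and 12 were below control, where 50.6% of all genes tested at 6 h were. Tunicamycin at 24 h, measured against the same controls as cyclosporin at 24 h, gave a median of 0.59, and all 20 genes rose at an adjusted p under 0.05 in edgeR, where 1.38% of all genes passed, 0.97% higher and 0.408% lower. A direct contrast of cyclosporin with tunicamycin slices at 24 h uses no control library. It called 225 of 17231 genes (1.31%), 79 higher with cyclosporin (0.458%) and 146 lower (0.847%). The count was 78 without C57BL/6J replicate 3 with cyclosporin, 299 without C57BL/6J replicate 3 with tunicamycin and 515 in DESeq2. Of the 20 genes, 19 were lower with cyclosporin than with tunicamycin at an adjusted p under 0.05, with a median difference of -0.77 log2. Hspa5 differed by -0.67 (interval -0.91 to -0.43, adjusted p = 0.0124 in edgeR) and Herpud1, a factor of endoplasmic reticulum-associated degradation, by -1.02 (interval -1.25 to -0.78, adjusted p = 0.00322).

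The integrated stress response, which runs through eIF2α phosphorylation and Atf4, was balanced with cyclosporin: 11 of 20 genes were higher, the median was 0.02 (-0.001 with the GC and length offsets) and all 20 were bounded within 1.5-fold. Ddit3, the pro-apoptotic factor CHOP, ran from 169 to 204 CPM in controls and from 154 to 219 CPM with cyclosporin. Its log2 change was -0.06 (interval -0.23 to 0.12) at 24 h and 0.03 at 6 h, and 0.82 with tunicamycin at 24 h. The direct difference between the drugs was -0.88 (interval -1.11 to -0.65, adjusted p = 0.00385 in edgeR). Atf4 itself had -0.01 (interval -0.11 to 0.09), Trib3 -0.04 and Chac1 0.12. In the direct test, 5 of the 20 genes were lower than with tunicamycin at an adjusted p under 0.05, where 0.847% of all genes were. Tunicamycin against control raised 5 of the 20 at that threshold, where 0.97% of all genes rose. The genes with the smallest p in that contrast were Fam171b (-2.04), Il5ra (1.73) and Atp2a2, the calcium pump of the endoplasmic reticulum (-0.55), each at an adjusted p of 0.00322 in edgeR. Rcan1 was also lower than with tunicamycin, by -0.42 (interval -0.62 to -0.22, adjusted p = 0.0474 in edgeR). Against control, its log2 change was 0.16 with tunicamycin (interval 0.02 to 0.29) and -0.27 with cyclosporin, so both drugs enter that difference.

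**Figure D3:**
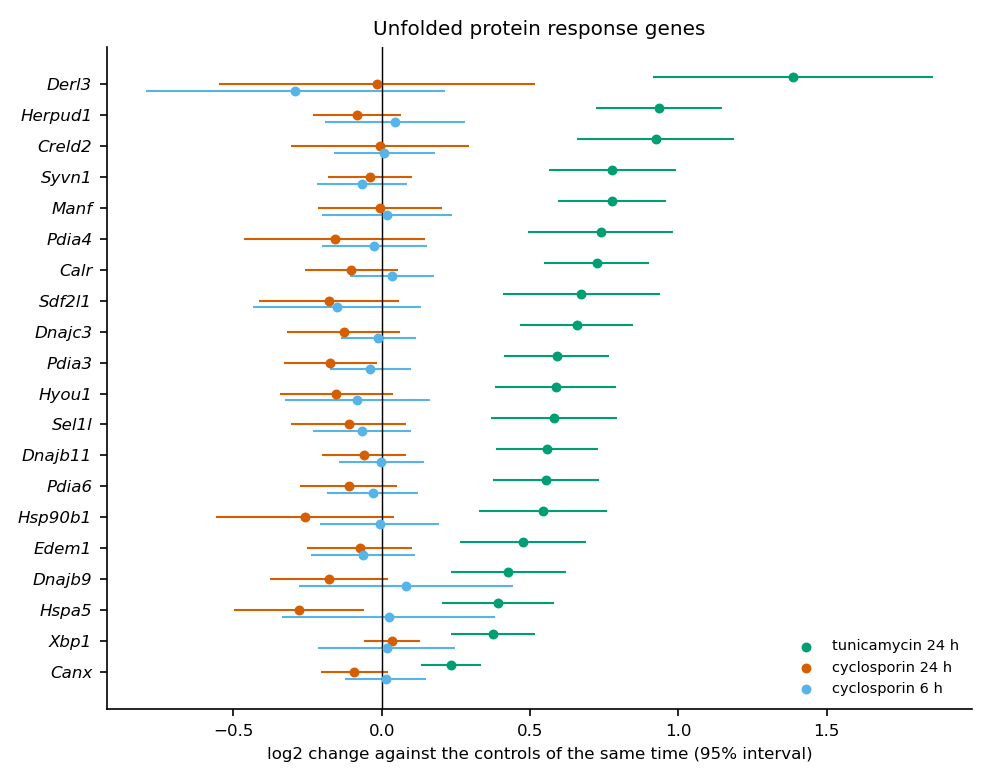
Log2 changes with 95% intervals of the 20 unfolded protein response genes in tunicamycin at 24 h, cyclosporin at 24 h and cyclosporin at 6 h, each against the controls of its own time, averaged over the strains; the 2 comparisons at 24 h share their control libraries. Tunicamycin values lie to the right of 0 for all 20 genes, and cyclosporin values at 24 h lie between -0.28 and 0.03.

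**Figure D4:**
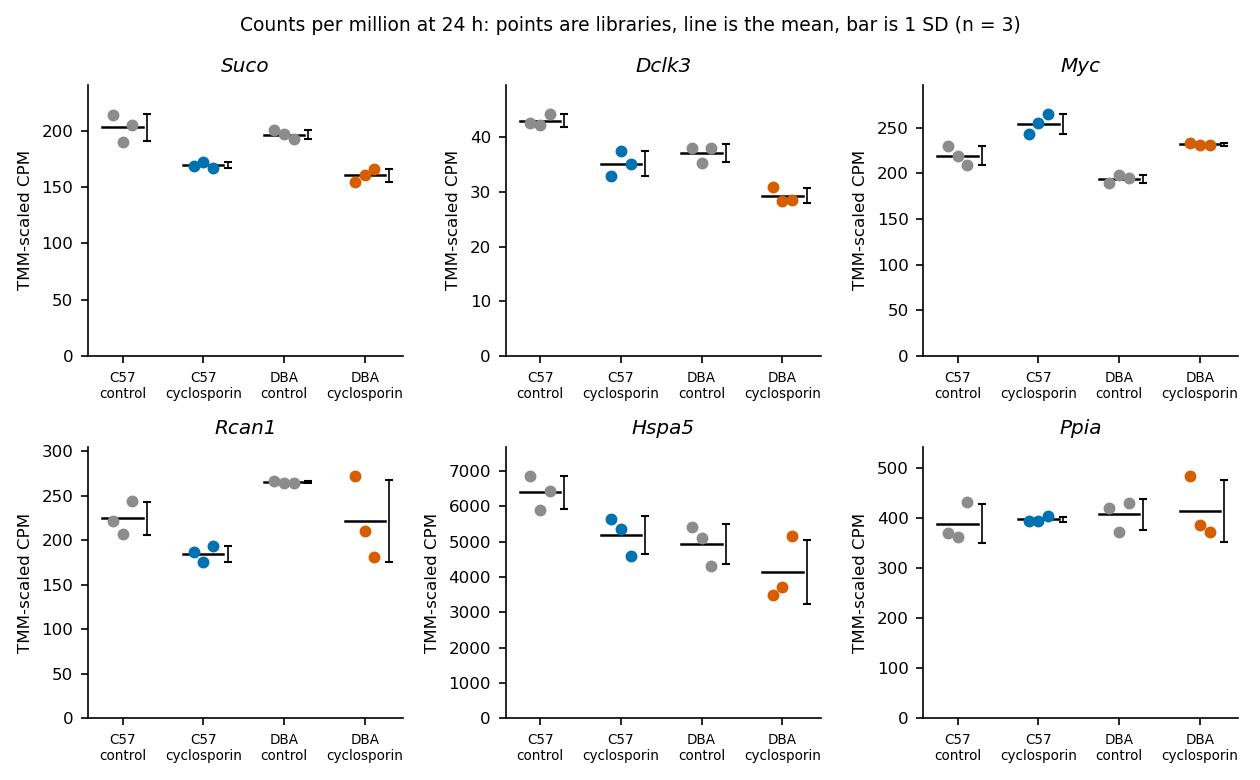
TMM-scaled CPM of 6 genes in each library at 24 h by strain and treatment, with the group mean (line) and 1 SD (bar, n = 3); axes start at 0. Suco, Dclk3 and Myc show groups apart in both strains, Rcan1 and Hspa5 in C57BL/6J, and Ppia overlaps in both.

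Markers of tubular injury were spread around control. Of 20 genes, 14 were higher and 6 lower, 2 were higher at an unadjusted p under 0.05, where 3.15% of all genes were (Sox9, a factor of tubular repair, and Myc, 1 of the leading genes chosen for their small p), the median was 0.06 (0.02 with the GC and length offsets) and 17 were bounded within 1.5-fold. Havcr1, the injury marker Kim-1, stood at 261, 216 and 266 CPM in C57BL/6J controls against 281, 234 and 153 CPM with cyclosporin, and at 877, 325 and 564 against 597, 377 and 502 CPM in DBA/2J. These overlapped, and the log2 change was -0.21 (interval -0.74 to 0.33). Lcn2, the secreted marker NGAL, stood at 110, 66.8 and 68.5 against 87.6, 106 and 85.9 CPM in C57BL/6J and at 54.2, 80.2 and 58.1 against 61.6, 114 and 129 CPM in DBA/2J, a log2 change of 0.42 (interval -0.03 to 0.87, unadjusted p = 0.0633). Spp1, Clu, Vcam1 and Krt20 had log2 changes between -0.06 and 0.15.

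The fibrosis list had 13 of 20 genes higher, a median of 0.10 (0.06 with the GC and length offsets) and none with an unadjusted p under 0.05. Col1a1, the main fibrillar collagen, stood at 9.56, 14.7 and 12.3 CPM in C57BL/6J controls against 18.1, 12.9 and 12.4 CPM with cyclosporin, and at 5.09, 12.2 and 7.86 against 7.92, 4.86 and 55 CPM in DBA/2J. A single library, DBA/2J replicate 3 with cyclosporin, stood far above the others, and it did so for Fn1 too, at 430 CPM against 103 to 279 CPM elsewhere. Without it the log2 change of Col1a1 went from 0.84 to -0.07, that of Fn1 from 0.43 to -0.05 and the score difference of the list from 0.11 to -0.06. Tgfb1, the cytokine that drives matrix deposition, had 0.12 (interval -0.07 to 0.31) and Acta2, the myofibroblast actin, -0.11 (interval -0.40 to 0.17).

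Vasoactive genes, which matter for the arteriolar narrowing seen with the drug in animals, were 10 higher and 9 lower of 19, with a median of 0.001 (-0.02 with the GC and length offsets). Edn1, the vasoconstrictor endothelin 1, had 0.01 (interval -0.22 to 0.23) and Nos3, the endothelial nitric oxide synthase, 0.13 (interval -0.07 to 0.33). Ren1 had 0.00 (interval -1.04 to 1.04), because DBA/2J libraries ran from 117 to 828 CPM irrespective of treatment, so a 2-fold change lay inside its interval.

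Among genes of distal ion transport, 12 of 20 were lower and 4 were lower at an unadjusted p under 0.05 (background 3.4%): Trpm6, Trpv5, Cnnm2 and Slc12a3, which handle magnesium, calcium and sodium chloride in the distal convoluted and connecting tubule. The score of the whole list differed by -0.06 with an interval of -0.47 to 0.32. The list's median log2 change was 0.06 in C57BL/6J and -0.14 in DBA/2J. Trpm6, the apical magnesium channel, stood at 24.9, 25.1 and 27.1 CPM in C57BL/6J controls against 17, 23.8 and 17.6 CPM with cyclosporin, and at 19, 21.2 and 24.5 against 19.4, 18.8 and 22.1 CPM in DBA/2J. The groups were apart in C57BL/6J and overlapped in DBA/2J, with a log2 change of -0.25 (interval -0.46 to -0.04, unadjusted p = 0.0227, adjusted p = 0.67 in edgeR).

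Slc12a3, the thiazide-sensitive cotransporter, stood at 583, 799 and 814 CPM against 622, 693 and 689 CPM in C57BL/6J and at 1146, 1432 and 1529 against 1225, 1016 and 965 CPM in DBA/2J, a log2 change of -0.24 (interval -0.46 to -0.03, unadjusted p = 0.0286). Groups overlapped in both strains. Calb1, the calcium buffer of the same cells, had -0.30 (interval -0.74 to 0.13). The loop of Henle genes varied more between slices than between treatments: Slc12a1 ran from 144 to 862 CPM in controls and from 47.4 to 1197 CPM with cyclosporin, and Umod from 637 to 3539 and from 470 to 5186 CPM.

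Proximal tubule genes were 15 lower and 5 higher of 20, none with an unadjusted p under 0.05. Only 2 of them were bounded within 1.5-fold although 17 were bounded within 2-fold. Lrp2 and Cubn, the endocytic receptors megalin and cubilin, had log2 changes of -0.22 (interval -0.71 to 0.28) and -0.30 (interval -0.83 to 0.24). The phosphate carrier Slc34a1 had -0.05 (interval -0.72 to 0.62). The score of the list differed by -0.10 with an interval of -0.73 to 0.52, by -0.28 without DBA/2J replicate 1 with cyclosporin and by 0.08 without replicate 2. Of 16 tested genes of drug efflux and metabolism, 11 were lower and none had an unadjusted p under 0.05; Abcb1a and Abcb1b, the P-glycoproteins that export cyclosporin, had 0.10 (interval -0.22 to 0.42) and -0.11 (interval -0.53 to 0.32).

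Oxidative stress genes under Nrf2 stayed at control level within narrow bounds. Of 20, 9 were higher and 11 lower, the median was -0.01 and 19 were bounded within 1.5-fold. Hmox1, heme oxygenase 1, ran from 3286 to 4530 CPM in controls and from 3536 to 4732 CPM with cyclosporin, a log2 change of -0.02 (interval -0.17 to 0.13). Nqo1 had -0.06, Txnrd1 -0.06, Srxn1 -0.01 and Gclc, the rate-limiting enzyme of glutathione synthesis, -0.20 (interval -0.40 to 0.01). The score differed by -0.02 (interval -0.12 to 0.09), which leaves room for a list-wide shift between -8.25% and 6.57%.

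Hypoxia-inducible genes lay below control in 19 of 20 cases, where 46.4% of all genes did, with a median of -0.09, and 2 were lower at an unadjusted p under 0.05 (Ero1l and Bnip3), where 3.4% of all genes were. Bnip3, a mitophagy receptor, stood at 332, 300 and 330 CPM against 310, 277 and 280 CPM in C57BL/6J and at 247, 285 and 232 against 186, 237 and 240 CPM in DBA/2J, a log2 change of -0.18 (interval -0.34 to -0.02). Treated and control libraries overlapped in both strains. Vegfa and Slc2a1, 2 standard targets of HIF, had 0.02 (interval -0.27 to 0.30) and -0.02 (interval -0.30 to 0.25). The score differed by -0.11 with an interval of -0.30 to 0.06, and it was -0.04 without DBA/2J replicate 1 with cyclosporin.

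Cholesterol synthesis genes were 16 higher and 4 lower of 20, with a median of 0.03; Insig1, the sterol-regulated anchor of SREBP, had 0.14 (interval 0.01 to 0.28). Heat shock genes were 9 higher and 11 lower, all 20 bounded within 1.5-fold, and 3 were lower at an unadjusted p under 0.05, where 3.4% of all genes were: Hspa9, Hsp90aa1 and Hspa4l, the last of which is also 1 of the leading genes chosen for their small p. The inducible Hsp70 genes Hspa1a and Hspa1b, near-identical copies that can share reads, had 0.11 and 0.10, with intervals that included 0.

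NF-κB and cytokine genes were 9 higher and 10 lower of 19, with a median of -0.01. Il6 stood at 71.2, 62.8 and 51.8 CPM against 79.8, 47.1 and 44.4 CPM in C57BL/6J and at 188, 126 and 117 against 95.9, 39.9 and 99.2 CPM in DBA/2J. The DBA/2J groups did not overlap and the C57BL/6J groups did, for log2 changes of -0.88 and -0.12 and an average of -0.50 (interval -1.06 to 0.07). Tnf had 0.38 (interval -0.06 to 0.82), Cxcl1 -0.20 and Ccl2 0.06.

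Genes of the p53 pathway were 14 higher and 6 lower of 20, with Cdkn1a at 0.03 (interval -0.11 to 0.17), Mdm2 at 0.05 (interval -0.05 to 0.15) and Bbc3 at 0.25 (interval -0.07 to 0.57). Only Bcl2l11, the death activator Bim, had an unadjusted p under 0.05 (6.56% of all genes did), at 0.23. Cell cycle genes were 13 higher and 7 lower, and those with an unadjusted p under 0.05, where 3.15% of all genes were higher, were the G1 cyclins Ccne1 and Ccnd1, the latter also 1 of the leading genes. Of the genes of later phases, Mki67 had 0.09 (interval -0.30 to 0.48), Top2a -0.22 (interval -0.61 to 0.18) and Pcna 0.00 (interval -0.12 to 0.12).

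Of the 13 protein-coding genes of the mitochondrial genome, 5 were higher and 8 lower, with a median of -0.02 but a mean score difference of 0.19 (interval -0.22 to 0.63). With the GC and length offsets the balance turned, to 4 lower and a median of 0.04. Weakly counted members such as mt-Atp6, which overlaps its neighbour and stood between 0.566 and 10.8 CPM, had the largest changes. The abundant mt-Co1, mt-Nd1 and mt-Cytb had -0.05, -0.05 and -0.12. Of 14 genes of the permeability transition pore and its partners, 11 were lower, all 14 were bounded within 1.5-fold, and Tspo, the outer membrane translocator protein, was higher at an unadjusted p under 0.05 (3.15% of all genes were), at 0.20 (interval 0.06 to 0.34).

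**Figure D5:**
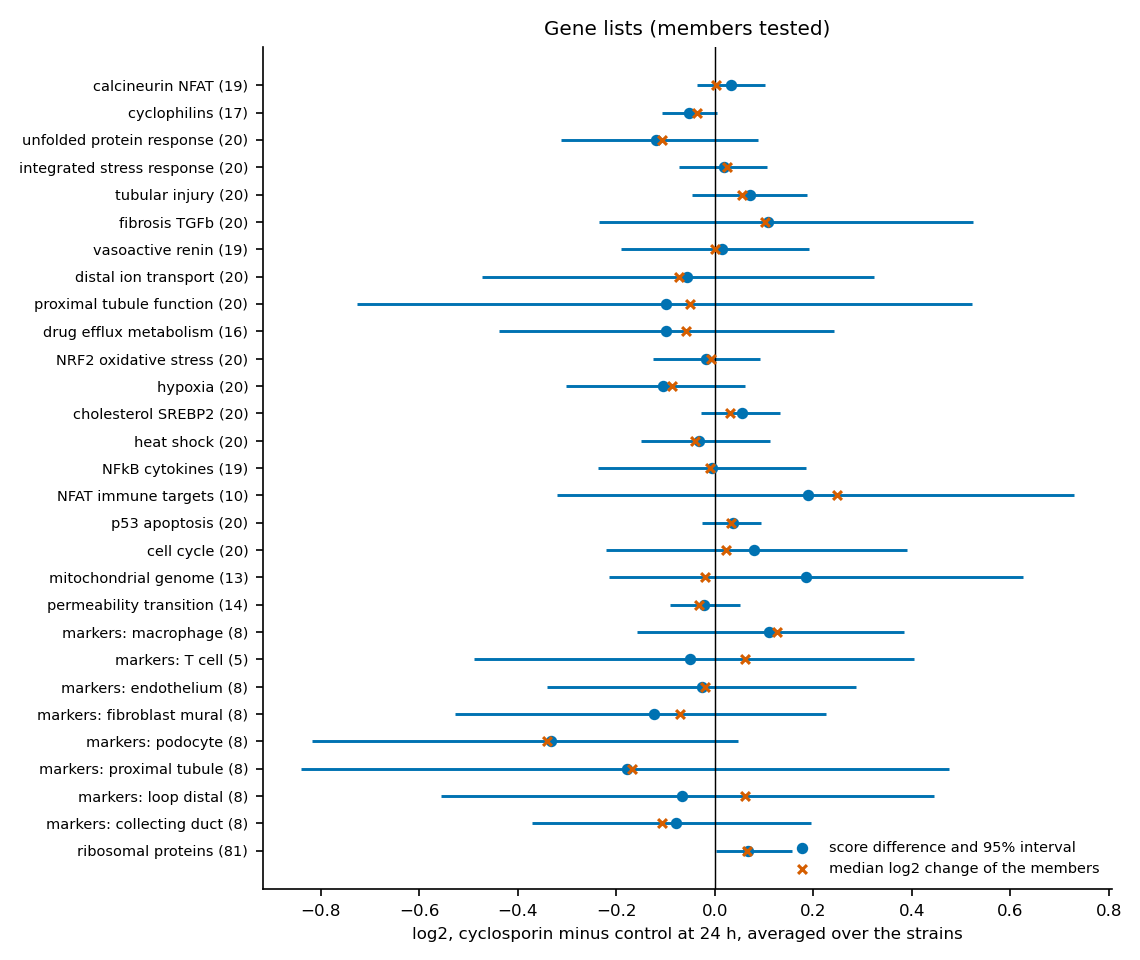
For each gene list, with the number of members tested in brackets, the blue point is the difference of the mean log2 CPM score between cyclosporin and control averaged over the strains, the line its 95% interval from exact permutation of labels within strain, and the cross the median log2 change of the members. The ribosomal protein list was added because of the leading genes it holds, so its interval is a description and no test; the intervals of the other lists include 0 and are widest for the proximal tubule markers and the proximal tubule function list.

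Markers of the cell types in the slice gave the composition beside these values. The 8 podocyte markers were 7 lower and 1 higher with a median of -0.34, and their summed level ran from 1673 to 1956 CPM in C57BL/6J controls against 1544 to 1728 with cyclosporin, and from 873 to 1368 against 520 to 1076 CPM in DBA/2J. Nphs1, which encodes nephrin of the slit diaphragm, stood at 170, 145 and 160 CPM against 125, 136 and 147 CPM in C57BL/6J and at 66.2, 111 and 93.9 against 25.1, 82.4 and 60.9 CPM in DBA/2J. The groups overlapped in both strains, with a log2 change of -0.45 (interval -0.99 to 0.09). DBA/2J replicate 1 with cyclosporin was the lowest library, and without it the podocyte score difference went from -0.33 (interval -0.82 to 0.05) to -0.17. Whether fewer glomeruli were in these slices was not tested.

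The remaining cell types overlapped between treatments. Macrophage markers were 6 higher and 2 lower of 8, endothelial ones 4 and 4, fibroblast and mural ones 3 and 5, proximal tubule ones 1 and 7, loop and distal ones 4 and 4, and collecting duct ones 3 and 5. The summed endothelial markers ran from 779 to 1818 CPM in controls and from 721 to 1838 CPM with cyclosporin, and the summed macrophage markers from 166 to 284 and from 189 to 338 CPM. No marker list had a member at 0 counts in all 12 libraries.

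The strains were compared by the interaction of strain and treatment. No gene passed (0 of 16887, 0%) and 259 (1.53%) had an unadjusted p under 0.05 in edgeR. Mapk4, an atypical MAP kinase, stood at 48.1, 46.6 and 51.6 CPM against 53.5, 56.7 and 51.1 CPM in C57BL/6J and at 52.4, 58.5 and 53.5 against 39.2, 50.5 and 36.7 CPM in DBA/2J. The groups overlapped in C57BL/6J and were apart in DBA/2J, and the difference of the strains' log2 changes was -0.52 (unadjusted p = 0.00479, adjusted p = 1 in edgeR). That of Hhatl was -0.85 (unadjusted p = 0.00585).

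The response at 24 h was also set against that at 6 h, which rests on other controls. None of 17775 genes passed (0%), and 769 (4.33%) had an unadjusted p under 0.05 in edgeR. The smallest p-values belonged to Il1rl2, with a log2 change of -0.85 at 6 h and 0.20 at 24 h, to Arhgef40, with -0.23 and 0.29, and to Dclk3. Cyclosporin at 6 h on its own gave 0 adjusted calls of 16538 genes and 734 unadjusted ones (4.44%). Suco had a log2 change of 0.04 at 6 h (interval -0.20 to 0.28), and the difference from its 24 h value was -0.33 (interval -0.58 to -0.08, unadjusted p = 0.0121, adjusted p = 1 in edgeR). Fibrosis genes were lower than control in 20 of 20 cases at 6 h, with a median of -0.30, against 7 of 20 at 24 h, and no member passed the test of that difference in edgeR. At 6 h the fibroblast and mural markers were lower in 8 of 8 cases (median -0.36), the endothelial markers in 8 of 8 (median -0.18) and the podocyte markers in 8 of 8 (median -0.07), and their part in the fibrosis values was not tested.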

How the data were processed

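Per the labels' protocols, RNA of the kidney slices was extracted with Qiagen midi columns, and the libraries were of the stranded mRNA ligation type. The authors deposited raw read counts per gene. The submitters' processing notes name bcl2fastq 2.20.0, FastQC 0.11.8, STAR 2.7.9a, featureCounts 1.5.1 and GRCm38; the annotation release, strand setting and filters are not given in the sources used here. The table held 55487 genes, 55141 with a symbol. The members, gene lists and tests were chosen with earlier results of these data known.

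Counts of the 12 libraries were filtered with filterByExpr, scaled by TMM and fitted with edgeR 4.0.16 (R 4.3.3, limma 3.58.1) by its quasi-likelihood test, with strain by treatment groups and the contrast averaged over strains; p-values were Benjamini-Hochberg adjusted over all genes tested. Standard errors and 95% intervals came from the information matrix and posterior quasi-dispersion of the fit; 73 genes with no counts in a group had no finite interval and were counted as not bounded. Total counts from 12384733 to 23584681 per library gave a median standard error of 0.115 log2. The 6 h and tunicamycin contrasts were fitted separately, the latter with the shared controls. List scores are mean log2 CPM with a prior count of 2, with intervals from the 400 permutations within strain. DESeq2 1.42.0, all 48 libraries, no filter, a replicate block, leaving out each library, and GC and length offsets were alternatives. The genes named are the leading 12 a side among those apart in both strains at 1 log2 CPM or more, the leaders of each other contrast and of DESeq2, and members of the lists. The models were tested on simulated data. Reads of near-identical copies and overlapping genes are uncertain. Some genes are not reported here.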

Additional observations from a re-analysis of the deposited data

How the results depend on the processing

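Averaged over both strains, 0 genes passed in edgeR, and 3 passed with no filter (Rpl28-ps1, Onecut2 and Rpl9-ps6, each weakly counted), 3 with all 48 libraries in the fit (Rpl28-ps1, Enpep and Dclk3), and 19 in DESeq2. In DBA/2J alone, DESeq2 called 2. Leaving out each library in turn gave 0 in every case for both strains, for each strain, for the interaction and for the difference between 24 h and 6 h, and between 14466 and 14745 genes inside 2-fold, against 14930 with all 12. Standard errors back-calculated from the F statistic, used at first and replaced after they were seen to fail for changes near 0, differed by over 10% for 162 genes and gave 14974 genes inside 2-fold. The 225 calls of cyclosporin against tunicamycin became 515 in DESeq2 (223 shared), 412 with all 48 libraries (204 shared) and between 78 (without C57BL/6J cyclosporin replicate 3) and 299 (without C57BL/6J tunicamycin replicate 3) when 1 library was left out. With the replicate block there were 468 calls in that contrast, 207 shared, and 0 over both strains (1255 unadjusted). Deviations of same-numbered libraries correlated between -0.257 and -0.109 in C57BL/6J, so replicate numbers did not pair the samples of that strain. In DBA/2J the correlations were 0.543, 0.452 and -0.004 for numbers 1 to 3. Numbers 1 and 2 of DBA/2J were the 2 of 6 over 0.1 and the 2 of 6 that correlated best with their own number. Whether the DBA/2J samples were paired was therefore not settled, and the main fit did not pair them. The 24 leading genes kept their sign over all 20 alternatives. Their choice, with every treated library beyond all controls of its strain, all but fixed this where 1 library was left out. Of 145 named genes, 58 changed sign under at least 1 of the 20. The list scores had 16 alternatives, and 16 of 29 scores changed sign under at least 1 of them. Enpep, Rpl28-ps1 and Onecut2 were named after their values were seen. Low counts limit the precision for genes under 0 log2 CPM.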
